A study of Mus musculus with 12 samples.

Results

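Transcripts of 10 genes that move chloride, bicarbonate and sodium across the intestinal epithelium, or signal for that transport, were measured in mucosa scraped from the mouse ileum, which lies between jejunum and colon. The genes were chosen by name, with earlier results of these data known: Cftr, Slc12a2, Slc26a3, Slc26a6, Slc9a2, Slc9a3, Clca4a, Clca4b, Guca2a and Guca2b. All 10 were found in a table of 55891 genes and all 10 passed the filter of 1 TPM (transcripts per 1000000) or more in 6 or more libraries, which kept 12605 genes for testing. The design compared 6 mice of the genotype labelled Erbb3-FF with 6 labelled ERBB3-dIE at baseline, without treatment in the labels. Erbb3 is a gene for an ErbB receptor, a group of growth factor receptors. Litter A held Erbb3-FF mice 3 to 6 and ERBB3-dIE mice 4 to 6, and litter B held Erbb3-FF mice 1 and 2 and ERBB3-dIE mice 1 to 3. The labels give neither the age or sex of the mice, nor the part of Erbb3 that was altered, nor a driver for any recombination. Each library came from 1 mouse.

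Both Clca4 genes were lower in ERBB3-dIE mice in each litter, at 27.3% (Clca4a) and 41.1% (Clca4b) of the mean TPM of Erbb3-FF mice. Slc9a2, a sodium-hydrogen exchanger, was lower by a smaller step, to 72.6%. Cftr, Slc12a2, Slc26a3, Slc9a3 and Guca2a did not pass the test of genotype. Guca2b and Slc26a6 were lower in ERBB3-dIE mice of litter A without overlap, overlapped in litter B, and did not pass the test over both litters. Cftr was higher in ERBB3-dIE mice of litter A without overlap. Each genotype had only 2 to 4 mice in a litter, and the share of all tested genes without overlap within 1 litter was not counted.

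Fluid secretion in the intestine starts when chloride enters the cell from the blood side through the cotransporter encoded by Slc12a2 (Nkcc1) and leaves into the lumen through the channel encoded by Cftr. Absorption of salt pairs an apical sodium-hydrogen exchanger, encoded by Slc9a2 (Nhe2) or Slc9a3 (Nhe3), with an apical chloride exchanger, encoded by Slc26a3 (Dra) or Slc26a6 (Pat1). Guanylin and uroguanylin, the products of Guca2a and Guca2b, are peptides released into the lumen that bind the receptor guanylate cyclase C, raise cyclic GMP, and so open Cftr and restrain Nhe3. Clca4a and Clca4b belong to the family of calcium-activated chloride channel regulators, whose members are secreted or membrane-bound proteins with a metalloprotease-like part and are not thought to form channels themselves.

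Promoter sequence of the mouse genome was at hand in RefSeq for 7 of the 10 genes (build GRCm38.p6), each window running from 250 bases before to 50 bases after the start of the gene. Windows of 4 genes are shown because the results turn on them: the neighbours Guca2a and Guca2b on chromosome 4, with 0 protein-coding genes between them, which differed in their spread over the mice, Slc26a6, whose levels followed those of Guca2b, and Clca4b, which was lower in ERBB3-dIE mice. The strand of each gene is given after its position and the letters run 5′ to 3′ on that strand. Capitals mark matches, on either strand, to 6 motifs: the TATA box with the letters TATAAA, the CCAAT box, the GATA motif with AGATAA, the CDX motif with TTTATGG, the HNF4 motif with CAAAGTCCA, and the HNF1 motif.
Guca2a, chr4:119637482-119637781 (+): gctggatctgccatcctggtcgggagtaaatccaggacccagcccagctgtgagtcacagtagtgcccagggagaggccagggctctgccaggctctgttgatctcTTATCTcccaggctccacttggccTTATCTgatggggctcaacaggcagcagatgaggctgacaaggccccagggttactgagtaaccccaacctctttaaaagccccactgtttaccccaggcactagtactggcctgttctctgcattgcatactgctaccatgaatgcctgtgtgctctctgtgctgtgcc
Guca2b, chr4:119658896-119659195 (−): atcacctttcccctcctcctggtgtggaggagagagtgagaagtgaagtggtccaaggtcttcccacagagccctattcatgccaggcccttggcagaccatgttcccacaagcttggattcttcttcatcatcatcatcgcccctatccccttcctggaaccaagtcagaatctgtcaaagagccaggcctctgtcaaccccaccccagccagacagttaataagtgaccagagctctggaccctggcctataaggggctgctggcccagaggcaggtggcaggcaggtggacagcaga
Slc26a6, chr9:108853793-108854092 (+): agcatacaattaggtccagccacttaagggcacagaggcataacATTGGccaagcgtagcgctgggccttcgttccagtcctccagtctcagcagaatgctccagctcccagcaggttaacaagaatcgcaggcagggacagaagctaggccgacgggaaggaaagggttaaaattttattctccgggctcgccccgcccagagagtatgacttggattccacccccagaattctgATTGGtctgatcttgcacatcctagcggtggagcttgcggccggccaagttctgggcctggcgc
Clca4b, chr3:144932480-144932779 (−): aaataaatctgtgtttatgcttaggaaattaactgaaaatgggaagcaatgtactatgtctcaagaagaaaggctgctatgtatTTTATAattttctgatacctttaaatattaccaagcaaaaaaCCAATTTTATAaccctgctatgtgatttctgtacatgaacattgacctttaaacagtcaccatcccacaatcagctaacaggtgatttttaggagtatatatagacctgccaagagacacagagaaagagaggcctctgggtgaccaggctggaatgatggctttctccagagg
The Guca2a window held the letters AGATAA on the reverse strand at both of its marked sites, which begin at positions −144 and −120 from the gene start. Of 32851 promoter windows of this length, 11.2% held AGATAA. The Guca2b window held none of the 6 motifs. The Slc26a6 window held CCAAT on the reverse strand at −206 and −14, and the Clca4b window held CCAAT at −124 beside TATAAA on the reverse strand at −166 and −119, with no overlap between them. CCAAT was present in 37.4% and TATAAA in 13.6% of all windows. For the other motifs these shares were 0.399% (HNF1), 2.75% (CDX) and 0.475% (HNF4). The base composition differed, with 56.3% G or C in the Guca2a window, 56.0% in Guca2b, 56.0% in Slc26a6 and 37.0% in Clca4b. These are matches of letters, and no binding was measured. The windows of Slc26a3, Cftr and Slc9a3 are not printed, and Clca4a, Slc9a2 and Slc12a2 were not matched.

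The libraries differed in ways that touch these genes. Villus enterocyte genes, 14 of them tested (such as Alpi and Fabp2), had a mean log2(TPM + 0.5) of 7.03 to 8.66 in Erbb3-FF mice, 5.936 to 6.596 in ERBB3-dIE mice of litter A and 7.41 to 8.10 in ERBB3-dIE mice of litter B. Erbb3-FF 3 had the highest villus enterocyte level and the lowest crypt level (3.10) of the 12 libraries, although it belongs to litter A. All 14 genes of the ileal epithelium list were present, with Fabp6 and Slc10a2, which mark the ileum, among them. By genotype, limma called 3 of these 14 lower and 1 higher, beside 3.7% and 1.66% of all tested genes. For 4 of the 14 the genotype ranges did not overlap. Slc10a2 was 1 gene called lower, with means of 194.7 (Erbb3-FF) and 91.87 TPM (limma adjusted p = 0.0119) and no overlap. Fabp6 spanned 6460 to 45970 TPM over the libraries and did not pass (limma adjusted p = 0.298). The presence of these genes thus does not show that the scrapings were alike. Car1, a carbonic anhydrase abundant in the large intestine, ranged from 0.0817 TPM to 6107 TPM in ERBB3-dIE 5, while Muc5b and Hoxb13 stayed at or below 0.0526 TPM in every library. Genes of the smooth muscle list were highest in ERBB3-dIE mice 4 and 5 (4.36 and 4.31 against at most 3.22 elsewhere). Ribosomal sequence took up to 1.62% of TPM, except for 10.2% and 10.8% in mice 5 and 6 of Erbb3-FF. Erbb3 itself, summed over the gene, was at 117 ± 23.7 and 142 ± 39.9 TPM by genotype (ERBB3-dIE the higher, SD over 6 mice each, limma adjusted p = 0.402), so the level of the gene as a whole does not check the labels.

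The levels of the 10 genes spanned a wide range. TPM is scaled by transcript length, so levels can be set side by side. Guca2a was highest with a mean of 1677 TPM over the 12 libraries, then Guca2b (714), Clca4b (522), Clca4a (396), Slc26a6 (121), Slc26a3 (55.1), Slc9a2 (52.95), Slc12a2 (32.5), Cftr (22.7) and Slc9a3 (3.36). Guca2a exceeded Guca2b, and Cftr exceeded Slc9a3, in all 12 libraries. Slc26a3 exceeded Slc9a2 in 5 of 12 libraries and Guca2b exceeded Clca4b in 7 of 12, so these neighbours in the order did not differ beyond their spread. The order of the other neighbours held in 9 or 10 of 12 libraries.

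**Figure D1:**
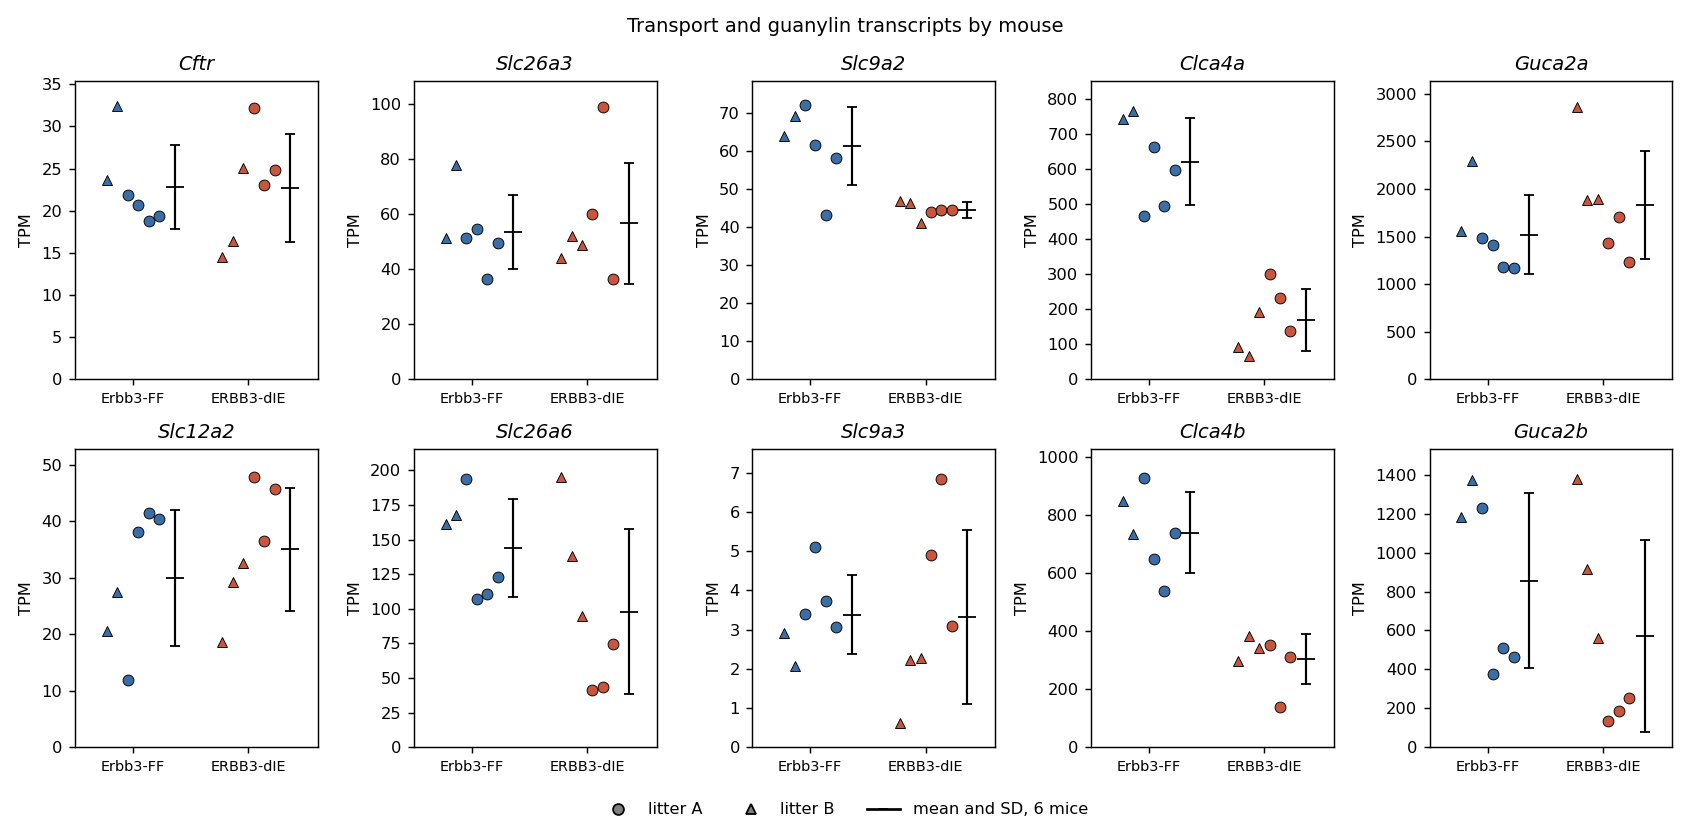
TPM (vertical axis, linear and starting at 0) of each of the 10 genes in Erbb3-FF (blue) and ERBB3-dIE (red) mice, with circles for litter A, triangles for litter B and the mean and SD of 6 mice beside each group. Clca4a and Clca4b were the genes whose genotype ranges did not overlap, while Guca2b and Slc26a6 were lowest in the 3 ERBB3-dIE mice of litter A.

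The genotype comparison asked whether the transcripts differed between the genotypes with litter held as a term. Of the 10 genes, 3 passed the test as lower in ERBB3-dIE (limma, adjusted p under 0.05) and 0 as higher, where 3.7% of all tested genes were called lower and 1.66% higher. At an unadjusted p under 0.05, 5 of the 10 were lower and 0 higher in limma, where 13.1% of all tested genes were lower and 8.71% higher. The genotype ranges did not overlap for 2 of the 10, against 2.44% of all tested genes. The median log2 difference of the 10 genes was −0.25, beside −0.00066 over all tested genes. Because the 10 were chosen with earlier results of these data known, these counts and this median are a description and not a test of the group. A scraping mixes cells, so fewer cells of a type and less RNA per cell cannot be told apart.

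The chloride entry and exit genes gave no call. Cftr ran from 18.8 through a median of 21.3 to 32.4 TPM in Erbb3-FF mice and from 14.5 through 23.9 to 32.1 TPM in ERBB3-dIE mice. The groups overlapped almost wholly, with means of 22.8 ± 5.02 and 22.7 ± 6.42 TPM (SD, n = 6 each). Cftr had a log2 difference of −0.02 (SE 0.20, 95% interval −0.46 to 0.42, limma adjusted p = 0.966). The litters differed in sign. In litter A, Cftr was at 21.9, 20.7, 18.8 and 19.4 TPM in Erbb3-FF mice and at 32.1, 23.0 and 24.8 TPM in ERBB3-dIE mice, every ERBB3-dIE value above every Erbb3-FF value. In litter B it was at 23.7 and 32.4 against 14.5, 16.5 and 25.1 TPM, with overlap and the opposite direction. The log2 difference was 0.38 in litter A and −0.60 in litter B, and the test of this difference between litters gave an unadjusted limma p of 0.0089 and an adjusted p of 0.347. In limma's interaction test 0 genes passed after adjustment (0%), and 1174 of 12605 had an unadjusted p under 0.05.

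Slc12a2, whose product loads the cell with chloride and which is also a crypt gene, ran from 11.9 through 32.7 to 41.4 TPM in Erbb3-FF mice and from 18.6 through 34.5 to 47.9 TPM in ERBB3-dIE mice. The lowest value was that of Erbb3-FF 3, the library with the least crypt signal, and the groups overlapped. Slc12a2 had a log2 difference of 0.37 (SE 0.30, 95% interval −0.28 to 1.01, limma adjusted p = 0.513). Both litters gave a positive difference, 0.53 in A and 0.13 in B.

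Of the anion exchangers, Slc26a3 ran from 36.4 through 51.3 to 77.9 TPM in Erbb3-FF mice and from 36.6 through 50.4 to 98.8 TPM in ERBB3-dIE mice. The medians lay close together and the ranges overlapped. Slc26a3 had a log2 difference of 0.04 (SE 0.24, 95% interval −0.48 to 0.56, limma adjusted p = 0.943). The highest values were those of ERBB3-dIE 5 (98.8 TPM) and Erbb3-FF 2 (77.9 TPM). In these 2 libraries Car1 stood at 6107 and 836 TPM. The other libraries with Car1 above 500 TPM were ERBB3-dIE 4 (3119), Erbb3-FF 4 (1566), ERBB3-dIE 6 (762) and Erbb3-FF 5 (629), and Slc26a3 was at 60.0, 54.5, 36.6 and 36.4 TPM in them. Slc26a3 is itself abundant in the colon. With the colon-type list as a further term, its log2 difference was −0.05, and without ERBB3-dIE mice 4 and 5 it was −0.38, neither with a call.

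Slc26a6 exchanges chloride for bicarbonate and oxalate. In litter A it was at 194, 107, 111 and 123 TPM in Erbb3-FF mice and at 41.4, 43.2 and 74.3 TPM in ERBB3-dIE mice, with no overlap. In litter B it was at 161 and 168 against 195, 138 and 94.95 TPM, with overlap. Mean values by genotype were 144 ± 35.5 and 97.9 ± 59.7 TPM (SD, n = 6 each). Over both litters Slc26a6 had a log2 difference of −0.89 (SE 0.26, 95% interval −1.47 to −0.32), with an unadjusted limma p of 0.00577 and an adjusted p of 0.0742. The exact 2-sided permutation test within litters gave p = 0.0143, and that over all 924 relabellings p = 0.0952. Slc26a6 differed by −1.34 in litter A and −0.27 in litter B (limma interaction, unadjusted p = 0.0394, adjusted p = 0.511).

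**Figure D2:**
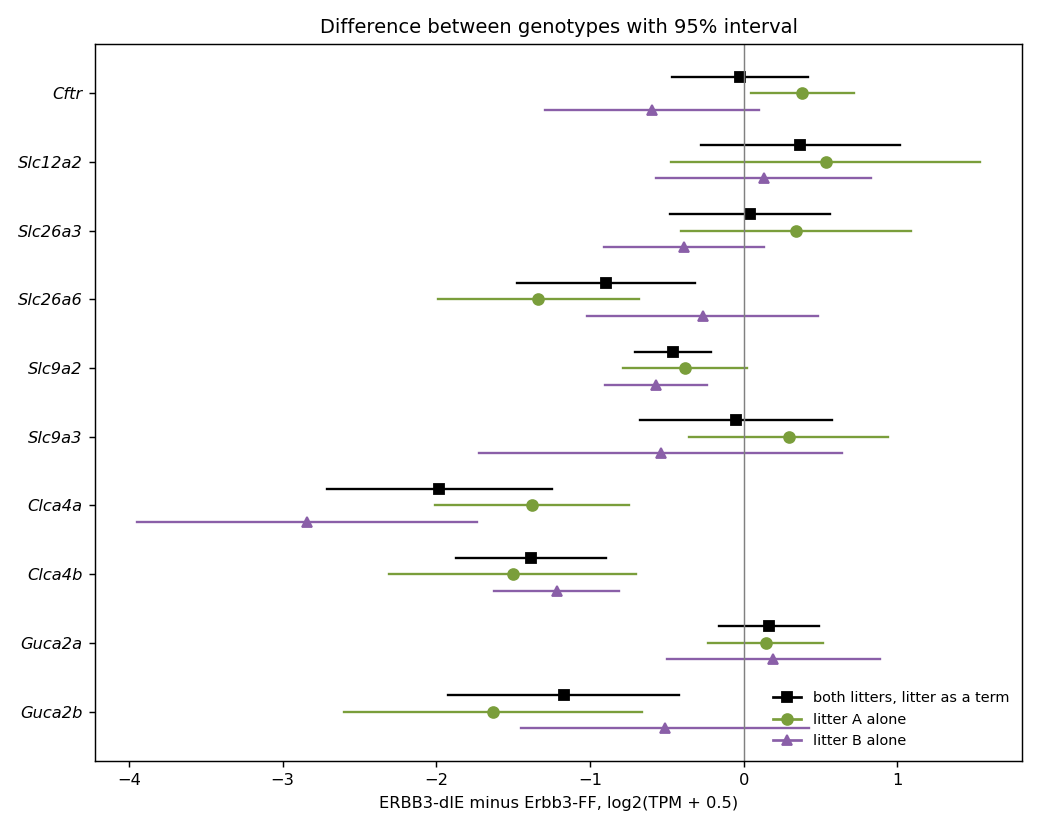
Log2 difference between genotypes (ERBB3-dIE minus Erbb3-FF, horizontal axis, log2(TPM + 0.5)) with its 95% interval for each gene, from both litters with litter as a term (squares), litter A alone (circles) and litter B alone (triangles). The intervals of Clca4a and Clca4b lay below 0 in all 3 fits, and Cftr, Slc26a3 and Slc9a3 had opposite signs in the 2 litters.

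The sodium-hydrogen exchangers differed from each other. Slc9a2 ran from 43.2 through 62.7 to 72.2 TPM in Erbb3-FF mice and from 41.1 through 44.5 to 46.9 TPM in ERBB3-dIE mice. The ERBB3-dIE values were close together, and 1 Erbb3-FF mouse (mouse 5, 43.2 TPM) lay among them. The mean was 61.4 ± 10.3 against 44.5 ± 2.05 TPM (SD, n = 6 each). Slc9a2 fell in ERBB3-dIE by 0.46 on the log2 scale (SE 0.11, 95% interval −0.71 to −0.21, limma adjusted p = 0.0410), and the exact 2-sided permutation test gave p = 0.013. The difference was −0.38 in litter A and −0.57 in litter B, where the groups, of only 2 and 3 mice, did not overlap. The adjusted call was narrow: it was lost when any 1 library other than Erbb3-FF 5 was left out, with adjusted p-values up to 0.106 and log2 differences between −0.54 and −0.41.

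Slc9a3, the main apical exchanger of sodium absorption in textbook accounts, was low in these scrapings. It ran from 2.08 through 3.23 to 5.12 TPM in Erbb3-FF mice and from 0.626 through 2.69 to 6.85 TPM in ERBB3-dIE mice. The ERBB3-dIE range enclosed the Erbb3-FF range. Slc9a3 had a log2 difference of −0.05 (SE 0.29, 95% interval −0.68 to 0.58, limma adjusted p = 0.941). Slc9a3 was lower in litter B than in litter A (4.31 ± 1.40 TPM in 7 mice of A and 2.03 ± 0.848 TPM in 5 of B), a log2 difference of −0.96 with a limma adjusted p of 0.0611, and the ranges of the litters did not overlap, at 3.06 to 6.85 against 0.626 to 2.92 TPM.

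The Clca4 genes gave the widest separation. Clca4a (ENSMUSG00000068547) ran from 466 through 632 to 767 TPM in Erbb3-FF mice and from 65.4 through 165 to 299.7 TPM in ERBB3-dIE mice. Every ERBB3-dIE mouse was below every Erbb3-FF mouse, over all mice and within each litter. The means were 622 ± 125 and 170 ± 88.6 TPM (SD, n = 6 each). Clca4a fell by 1.98 on the log2 scale (SE 0.33, 95% interval −2.71 to −1.25, limma adjusted p = 0.00867), and the exact 2-sided permutation test gave p = 0.00216, the smallest it can give.

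Clca4a was farther apart in litter B. There the Erbb3-FF mice were at 743 and 767 TPM and the ERBB3-dIE mice at 91.4, 65.4 and 193 TPM, a log2 difference of −2.84. In litter A the Erbb3-FF mice were at 466, 665, 494 and 599 TPM and the ERBB3-dIE mice at 299.7, 231 and 137 TPM, a log2 difference of −1.38. The interaction with litter had an unadjusted limma p of 0.0215 and an adjusted p of 0.425.

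Clca4b (ENSMUSG00000074195) ran from 539 through 736 to 928 TPM in Erbb3-FF mice and from 137 through 327 to 384 TPM in ERBB3-dIE mice. Again the genotypes did not overlap, over all mice or in either litter. The means were 740 ± 139 and 304 ± 87.2 TPM (SD, n = 6 each). Clca4b fell by 1.38 on the log2 scale (SE 0.22, 95% interval −1.87 to −0.90, limma adjusted p = 0.00770), with an exact 2-sided permutation p of 0.00216, again the smallest possible. The litters gave −1.50 (A) and −1.22 (B). Without each library in turn, both Clca4 genes stayed past the threshold in 12 of 12 fits, with log2 differences of −2.20 to −1.79 (Clca4a) and −1.50 to −1.14 (Clca4b).

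Clca4a and Clca4b are neighbours on chromosome 3 with 0 protein-coding genes between them in RefSeq (GRCm38.p6), and their transcripts share sequence. Of the 2930 windows of 75 bases in Clca4a transcripts (GENCODE M21), 24.9% also occur in Clca4b or the pseudogene Clca4c-ps, and 12.6% of the 2923 windows of Clca4b occur in Clca4a or Clca4c-ps. The split of reads between the genes is therefore uncertain, while their sum is less so. Clca4a and Clca4b together ran from 1033 to 1592 TPM in Erbb3-FF mice (1362 ± 192) and from 368 to 650.5 TPM in ERBB3-dIE mice (474 ± 104, SD over 6 mice), without overlap. Clca4c-ps was at most 3.75 TPM in any library. The other 8 genes shared 0 such windows with another gene.

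Guca2a (ENSMUSG00000023247), which encodes guanylin, ran from 1175 through 1449 to 2299 TPM in Erbb3-FF mice and from 1236 through 1794 to 2863 TPM in ERBB3-dIE mice. The groups overlapped, and the log2 difference was 0.17 (SE 0.15, 95% interval −0.16 to 0.49, limma adjusted p = 0.560). The difference was positive in both litters, 0.15 in A and 0.19 in B.

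Guca2b (ENSMUSG00000032978), which encodes uroguanylin, varied over 10.2-fold between mice. In litter A it was at 1230, 379, 509 and 463 TPM in Erbb3-FF mice and at 136, 187 and 252 TPM in ERBB3-dIE mice, with no overlap. In litter B it was at 1182 and 1371 against 1378, 918 and 561 TPM, and the ranges overlapped. The log2 difference over both litters was −1.17 (SE 0.34, 95% interval −1.92 to −0.42), with an unadjusted limma p of 0.00551 and an adjusted p of 0.0725. The exact 2-sided permutation test within litters gave p = 0.0143, and that over all relabellings p = 0.195. The litters gave −1.63 (A) and −0.51 (B), a difference with an unadjusted limma p of 0.111. Leaving out ERBB3-dIE 1, the mouse with the highest Guca2b, took both Guca2b (−1.33, adjusted p = 0.0453) and Slc26a6 (−1.04, adjusted p = 0.0394) past the limma threshold.

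The authors' deposited table, from their own test with DESeq2, called 5 of the 10 genes and 1950 genes in all. In limma 676 of 12605 tested genes were called. The number of genes tested in the deposited table was not counted. The 2 totals thus have no known common base, and no share of all genes can be set beside the 5 of 10. The deposited table gives log2 fold changes of −1.95 for Clca4a (adjusted p = 5.83e-11), −1.28 for Clca4b (2.25e-09), −0.44 for Slc9a2 (0.000629), −0.81 for Guca2b (0.0218) and −0.69 for Slc26a6 (0.0394). The 2 genes called there and not by limma were thus Guca2b and Slc26a6. In the authors' deposited table the other 5 had adjusted p-values from 0.294 (Guca2a) to 0.969 (Cftr).

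The litters were compared next, with genotype held as a term. Of the 10 genes, 2 passed as higher in litter B, Guca2a and Guca2b, and 0 as lower, where 7.16% of all tested genes were called higher and 1.4% lower. Guca2a was at 1375 ± 193 TPM in the 7 mice of litter A and 2100 ± 500.2 TPM in the 5 of litter B, a rise of 0.56 on the log2 scale (SE 0.15, limma adjusted p = 0.0437). Guca2b was at 451 ± 371 and 1082 ± 346 TPM, a rise of 1.74 (SE 0.35, limma adjusted p = 0.0223). At an unadjusted p under 0.05, 1 of the 10, Slc9a3, was lower in litter B, a share near the 9.64% of all tested genes. Slc26a6 had a litter difference of 0.91 that did not pass (limma adjusted p = 0.0576).

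These litter calls depended on single libraries, and both were also lost with no filter on low genes or with the smooth muscle, colon-type or villus enterocyte list as a further term. The Guca2b call was lost without ERBB3-dIE 1, 2, 4 or 5 (adjusted p from 0.0524 to 0.0583), and the Guca2a call was lost without any 1 library but Erbb3-FF 3 (adjusted p up to 0.107). Erbb3-FF 3 was the mouse of litter A whose Guca2b (1230 TPM) lay within the range of litter B. Without Erbb3-FF 3, 5 of the 10 genes passed in limma. They were Guca2b (1.93, adjusted p = 0.000882), Guca2a (0.59, 0.0185), Slc26a6 (1.02, 0.0117), Slc12a2 (−0.72, 0.0068) and Slc9a3 (−1.002, 0.0361). With no library left out, 7.16% of all tested genes were called higher in litter B and 1.4% lower. Those shares belong to another fit than the count of 5. Calls over all genes also moved when 1 library was left out, and their share without Erbb3-FF 3 is not given. The count of 5 thus cannot be set against a share of all genes. The mouse was singled out by its own values, so the count of 5 is a description.

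Genes of the villus enterocyte list also differed by litter and genotype. Of all tested genes, 1.66% were called higher and 3.7% lower by genotype, and 7.16% higher in litter B. For the list the median log2 difference was −0.87 by genotype (0 higher and 5 lower of 14 tested) and 1.06 by litter (8 higher in B). By genotype it was −1.40 in litter A and −0.54 in litter B. The level of Guca2b followed this list over the mice. Its lowest level was 136 TPM at a list mean of 5.99 (ERBB3-dIE 4) and its highest 1378 TPM at 8.10 (ERBB3-dIE 1). Where the list was lowest (5.936, ERBB3-dIE 5) Guca2b was at 187 TPM, and where it was highest (8.661, Erbb3-FF 3) at 1230 TPM. With the list mean as a further term, chosen after the data were seen, the log2 genotype difference was −0.05 for Guca2b and −0.07 for Slc26a6, and the litter difference of Guca2b was 0.34, none with a call. In the same fit Clca4a was at −2.74 (limma adjusted p = 0.0258), Clca4b at −0.99 (adjusted p = 0.172) and Slc9a2 at −0.27 (adjusted p = 0.425). The list itself differed by genotype, and whether its change accounts for that of these genes was not tested.

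**Figure D3:**
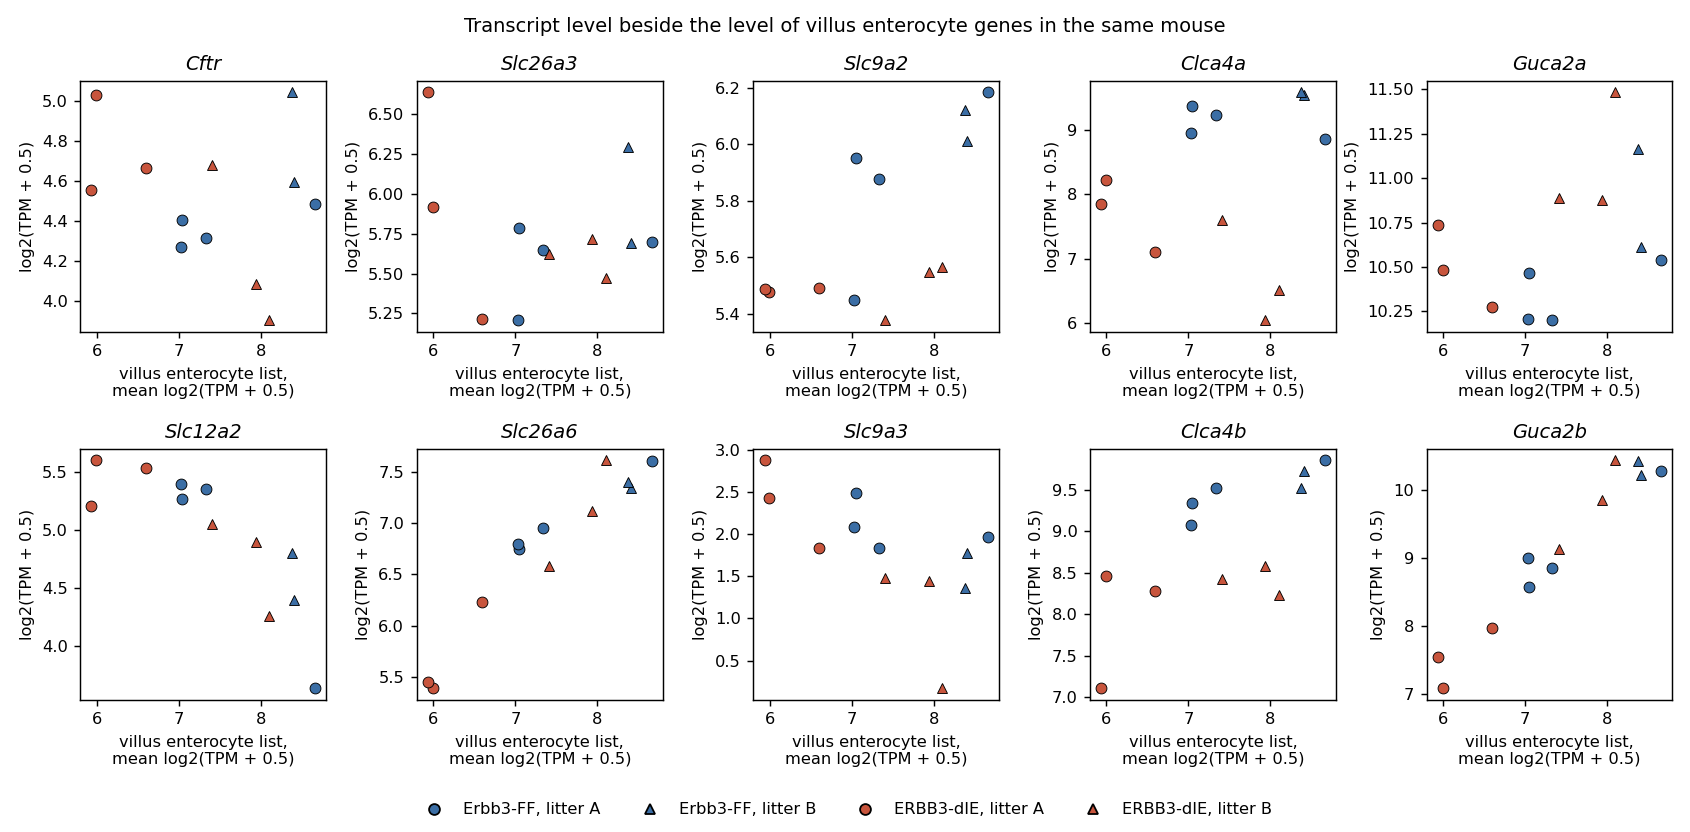
Level of each gene (vertical axis, log2(TPM + 0.5), scale set for each panel) against the mean level of 14 villus enterocyte genes in the same mouse (horizontal axis, log2(TPM + 0.5)), with blue for Erbb3-FF, red for ERBB3-dIE, circles for litter A and triangles for litter B. Guca2b and Slc26a6 lie along 1 rising band that holds both genotypes, while for Clca4a the ERBB3-dIE mice of litter B lie below Erbb3-FF mice at like levels of the list.

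The villus tip list, like the other lists, was chosen with earlier results of these data known. Its separation by genotype is thus a description and not a test. Mean log2 levels were 4.82 to 5.77 in Erbb3-FF and 3.86 to 4.28 in ERBB3-dIE mice, apart in both litters. In this list 4 of 8 were lower, with a median log2 difference of −1.11. Beside this and the counts that follow, 3.7% of all tested genes were called lower and 1.66% higher. Goblet cell genes had a median of 0.78 (4 of 10 higher, 0 lower) and crypt genes, which include Slc12a2, a median of 0.47 (1 of 14 higher). T cell genes had a median of 1.29 (4 of 8 higher, 0 lower), and their mean log2 level was 3.03 to 3.94 in Erbb3-FF and 3.69 to 5.22 in ERBB3-dIE mice. Enteroendocrine genes had a median of 0.24 (3 of 10 higher, 0 lower), with mean log2 levels of 4.68 to 4.89 and 4.98 to 5.20 that did not overlap. The part of these cell types in the differences of the Clca4 genes and Slc9a2 was not tested beyond the terms given.

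Ratios of gene pairs within a mouse do not move with the scaling of its library. Guca2b stood to Guca2a at a ratio of 0.268 to 0.828 in Erbb3-FF mice and of 0.0949 to 0.488 in ERBB3-dIE mice. The lowest 3 ratios were those of the ERBB3-dIE mice of litter A, at 0.0949, 0.109 and 0.204. The mean log2 ratio was −0.98 ± 0.62 for Erbb3-FF and −2.12 ± 1.02 for ERBB3-dIE (SD, n = 6 each). Their difference of −1.14 had an exact 2-sided permutation p of 0.0476, or 0.286 adjusted over the 6 pairs tested. With relabelling within litters, the difference was −1.34 with an exact permutation p of 0.00286, the smallest possible there, or 0.0171 adjusted over the 6.

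Clca4a stood to Clca4b at 0.502 to 1.04 in Erbb3-FF and at 0.17 to 1.69 in ERBB3-dIE mice. The widest spread was among ERBB3-dIE mice, with the highest ratio in mouse 5 (1.69), whose Clca4b was lowest, and the lowest in mouse 2 (0.17). This ratio differed by −0.70 on the log2 scale (exact permutation p = 0.186, adjusted 0.403), with 0.13 in litter A and −1.63 in litter B.

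Slc26a6 exceeded Slc26a3 in every mouse except ERBB3-dIE 4 and 5, where the ratio was 0.69 and 0.438. Its log2 ratio differed by −0.79 (exact permutation p = 0.201, adjusted 0.403). The remaining pairs gave log2 differences of −0.23 for Slc9a2 over Slc9a3 (exact permutation p = 0.619), 0.25 for Slc26a3 over Slc9a3 (p = 0.517) and 0.31 for Slc12a2 over Cftr (p = 0.379). In the last pair Slc12a2 exceeded Cftr in all 6 ERBB3-dIE mice and in 3 of 6 Erbb3-FF mice.

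**Figure D4:**
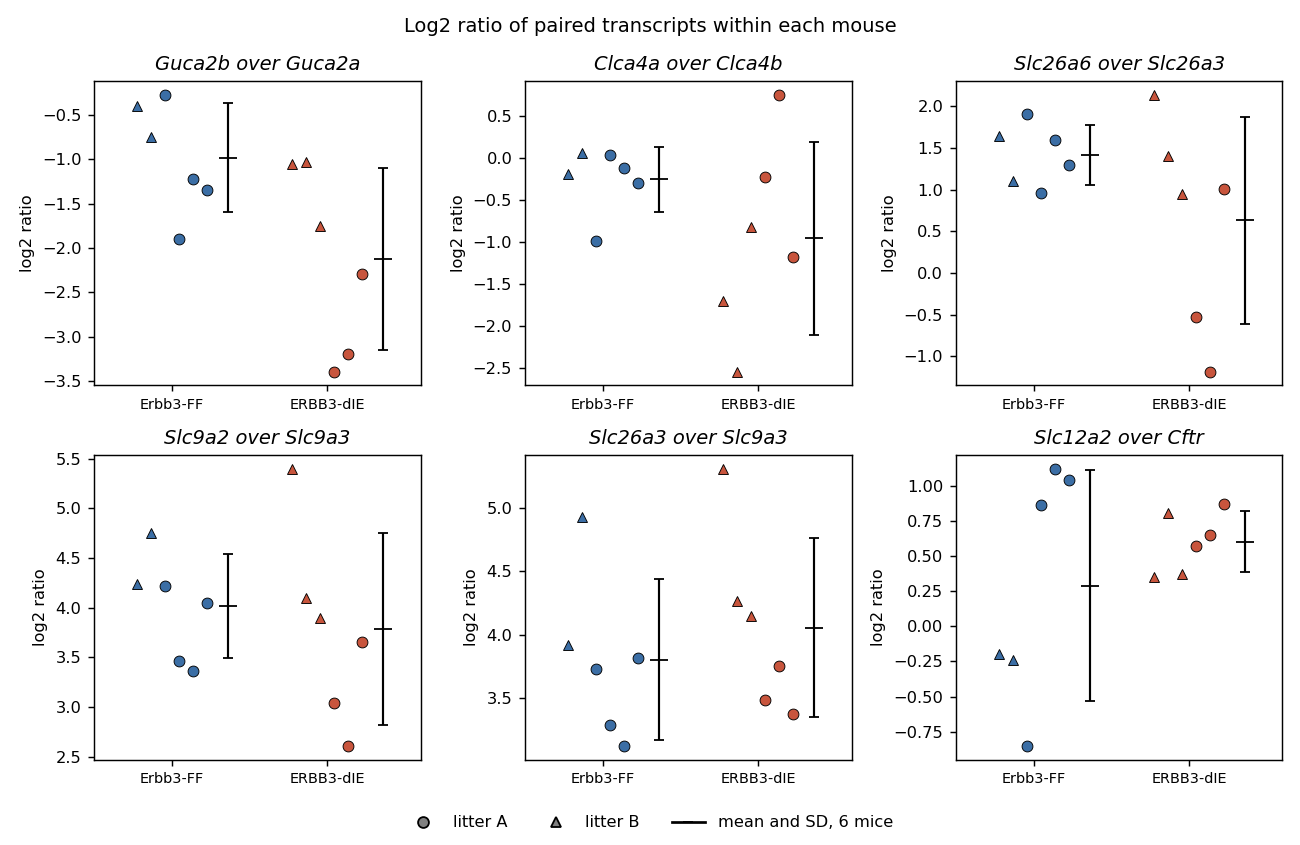
Log2 ratio of the 2 named transcripts within each mouse (vertical axis) by genotype for the 6 pairs tested, with circles for litter A, triangles for litter B and the mean and SD of 6 mice. The ERBB3-dIE mice of litter A have the lowest ratios of Guca2b to Guca2a, and the ERBB3-dIE ratios of Clca4a to Clca4b span from −2.55 to 0.75.

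The rest of the transport machinery was read from 7 lists of 127 genes in all, of which 85 were tested. In the guanylin pathway, 0 of 6 tested genes were called by limma (1 higher and 2 lower at an unadjusted p under 0.05, where 8.71% of all tested genes were higher and 13.1% lower), with a median log2 difference of 0.03. Gucy2c, the guanylin receptor, was at 89.1 and 86.4 TPM, with ERBB3-dIE the lower (log2 difference −0.05, limma adjusted p = 0.770). The smallest p belonged to Pde5a, which breaks down cyclic GMP, at 25.8 ± 2.93 against 19.8 ± 2.31 TPM (−0.38, adjusted p = 0.0635).

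Of 23 other chloride and bicarbonate genes, 1 was higher and 1 lower, where 1.66% and 3.7% of all tested genes were. These counts are near those shares, and the list median was −0.07. Ano7, of the anoctamin family, rose from 27.6 ± 4.34 to 41.6 ± 5.27 TPM (log2 difference 0.58, limma adjusted p = 0.0216) with no overlap. Clcn2, a chloride channel, fell from 54.6 ± 6.38 to 41.4 ± 4.05 TPM (−0.37, limma adjusted p = 0.0380). Clca1, the goblet cell member of the Clca family, was at a mean of 3891 and 7860 TPM, the higher in ERBB3-dIE, with ranges of 2022 to 6138 and 3055 to 14420 TPM, and did not pass (0.66, limma adjusted p = 0.205).

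Of 13 other genes of sodium entry and pumping, 1 was higher and 2 lower, where 1.66% and 3.7% of all tested genes were. The list median was −0.05. Sgk1, a kinase that raises the activity of sodium transporters, fell from 219 ± 57.2 to 88.6 ± 33.8 TPM (log2 difference −1.40, limma adjusted p = 0.0109) with no overlap. Slc34a2, a sodium-phosphate cotransporter, fell from 349 ± 43.8 to 207 ± 56.4 TPM (−0.85, limma adjusted p = 0.0162), also with no overlap. Fxyd3, a small partner of the sodium pump, rose from 99.4 ± 24.97 to 178 ± 37.0 TPM (0.91, limma adjusted p = 0.00770).

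Among 20 tested scaffolds and regulators of Nhe3 and Cftr, 2 were lower and 0 higher in limma, beside 3.7% and 1.66% of all tested genes. At an unadjusted p under 0.05 the counts were 7 and 2, beside 13.1% and 8.71% of all tested genes. The list median was −0.10. Ezr, ezrin, which ties membrane proteins to the microvillus, fell from 518 to 368 TPM (log2 difference −0.59, limma adjusted p = 0.0233). Lpar5, a lysophosphatidic acid receptor, fell from 10.3 to 6.57 TPM (−0.58, limma adjusted p = 0.0201) with no overlap. The scaffolds Slc9a3r1 (−0.64, adjusted p = 0.0602) and Pdzk1 (−1.24, adjusted p = 0.0846) did not pass.

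Of 12 tested receptors of secretion and absorption, 1 was higher and 2 lower (median −0.15), where 1.66% and 3.7% of all tested genes were. P2ry2, a receptor for extracellular nucleotides, fell from 18.9 to 9.71 TPM (log2 difference −1.02, limma adjusted p = 0.00867), and Gpr39, a zinc receptor, fell from 5.54 to 3.26 TPM (−0.65, limma adjusted p = 0.0153). Chrm1, a muscarinic receptor, rose from 1.15 to 2.13 TPM (0.68, limma adjusted p = 0.0195). Of 6 potassium channel and pump genes, 1 passed as higher, beside 1.66% of all tested genes. It was Kcnk6, a background potassium channel, which rose from 10.9 to 16.1 TPM (0.58, limma adjusted p = 0.0340). Of 5 water channels, 0 passed in limma (1 lower at an unadjusted p under 0.05, beside 13.1% of all tested genes), with Aqp7 nearest (−1.33, adjusted p = 0.137).

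**Figure D5:**
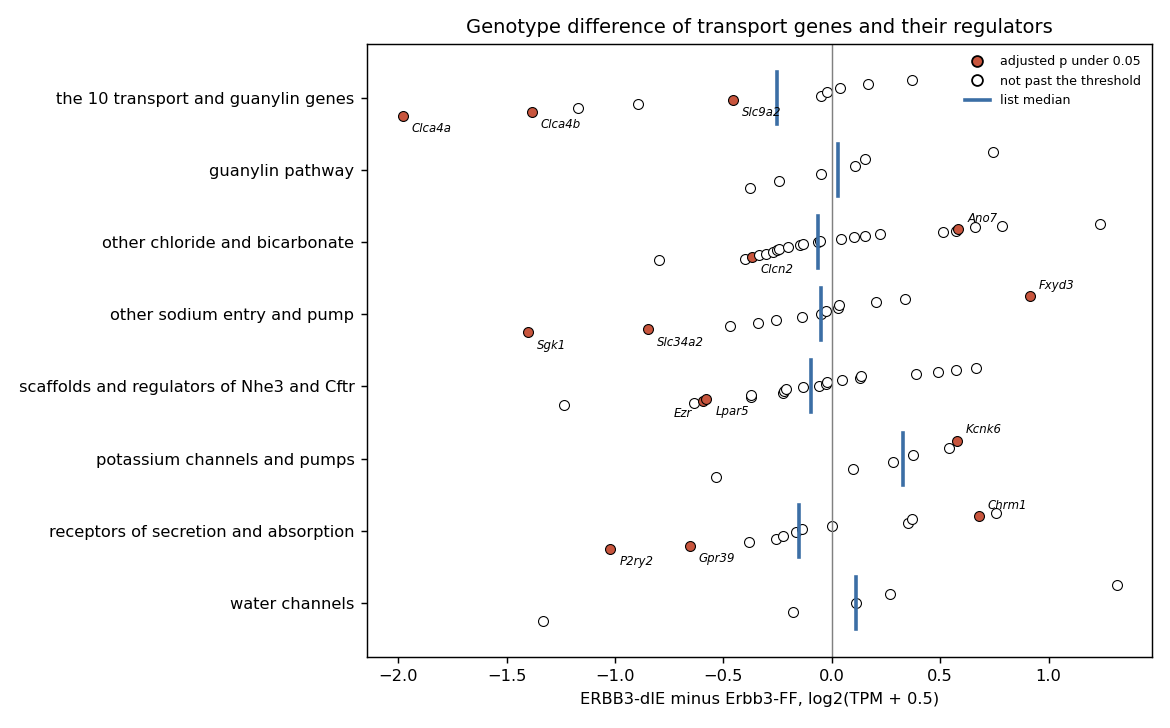
Log2 difference between genotypes (ERBB3-dIE minus Erbb3-FF, horizontal axis, log2(TPM + 0.5)) of the 10 genes and of each tested gene in 7 lists, 1 point per gene, filled and named where the limma adjusted p is under 0.05, with a bar at each list's median. Filled points fall on both sides of 0 in the chloride, sodium and receptor lists, and the guanylin pathway and water channels have none.

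The genes most like each of the 10 over the 12 libraries were found by Pearson correlation of log2(TPM + 0.5). These correlations pool both genotypes and litters, share libraries, and are given as a description. For Clca4a they were Ly6m (r = 0.972, Spearman rho = 0.965), Pmp22 (0.948, 0.867) and Adss (0.945, 0.944), and for Clca4b they were Eps8 (0.968, 0.923), Usp25 (0.967, 0.937) and Cln8 (0.967, 0.895). For Guca2b they were Tmem86b (0.988, 0.979), Amn (0.988, 0.972) and Rdh7 (0.983, 0.944), and 350 genes had an r over 0.9 with it. For Guca2a they were Prr15l (0.9, 0.86), Atp5b (0.898, 0.867) and Bad (0.891, 0.825), with 1 gene over 0.9.

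Slc26a6 was most like Rab11fip3 (0.981, 0.937), Ggt1 (0.98, 0.916) and Tkfc (0.978, 0.937). Among the 10 genes themselves, Slc26a6 and Guca2b had the highest correlation, with r = 0.959 over the 12 libraries. It was 0.938 after litter and genotype were taken away as additive terms, which leaves any interaction of the 2 in place. Over the 12 libraries the most negative r was that of Slc12a2 and Guca2b (−0.795, and −0.806 after the additive terms). After the additive terms it was that of Slc26a6 and Clca4a (−0.835), which had r = 0.132 over the 12 libraries. The interactions of these 2 genes had opposite signs (1.07 and −1.47 on the log2 scale) and remain in the value of −0.835. Slc12a2 was most like Tmem201 (0.971, 0.93), Smo (0.966, 0.881) and the crypt gene Olfm4 (0.963, 0.944).

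Slc9a2 was most like Atrn (0.949, 0.825), Abcd3 (0.948, 0.769) and Metrnl (0.942, 0.888). Slc9a3 was most like Alkbh2 (0.937, 0.874) and the mitochondrially encoded mt-Atp8 (0.918, 0.846) and mt-Nd5 (0.889, 0.867). Cftr (Prdm4, 0.904, 0.909; Washc4, 0.882, 0.846; Mtmr2, 0.873, 0.832) and Slc26a3 (Mptx1, 0.915, 0.839; Pon2, 0.9, 0.776; Rmnd1, 0.881, 0.902) each had 1 gene with an r over 0.9.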

How the data were processed

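Ileal mucosal scrapings of 12 mice gave 12 libraries of single-end 75-base reads from a strand-marking mRNA kit, per the labels' protocols. CASAVA, Salmon 1.10.0, DESeq2 and GRCm39 are named in the submitters' processing notes, and the annotation release is not given in the sources used here. The authors deposited TPM per library, each summing to 1000000, so read depth is unknown. The table also holds the authors' log2 fold changes with their standard errors and the authors' p-values and adjusted p-values.

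From the TPM, genes that reached 1 TPM in 6 or more libraries were tested on log2(TPM + 0.5), a scale that understates the change of low genes, with limma 3.58.1 (R 4.3.3), a variance trend, litter and genotype as terms and Benjamini-Hochberg adjustment over all 12605 genes at 0.05. An interaction of litter and genotype, each litter alone, exact 2-sided permutation tests over 924 relabellings (350 within litters) and 6 ratios were added (Python 3.11.15, scipy 1.17.1). The fit was tested on simulated data. Groups, litters and mouse numbers come from the labels, and each replicate is a separate mouse. The 10 genes and all lists were chosen with earlier results of these data known. The rule for naming other genes took, in each transport list, every gene past the threshold or else that with the smallest p, and the 3 genes most like each of the 10. Clca1, Gucy2c, Pdzk1 and Slc9a3r1 were named after their values were seen. Alternatives covered pseudocount, filter, scaling, covariates, litter term, mouse number, libraries and the authors' test. No genome of the table's build was used, so no coordinates of it are given.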

Additional observations from a re-analysis of the deposited data

Results flagged for a closer look

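Single mice stood apart from the other 5 of their genotype in 4 of 58 sets of 6 values tested (Dixon's gap test at 0.625). Chance alone marks about 1 in 20, a share near this one, and the sets share mice. The 4 are given as values to look at. Cftr was at 32.41 TPM in Erbb3-FF 2, with the next mouse at 23.68. Guca2a was at 2299 TPM in the same mouse, with the next at 1562. Clca4b was at 137.0 TPM in ERBB3-dIE 5, with the next at 298.9, and without this mouse the Clca4b call held. The log2 ratio of Clca4a to Clca4b was −0.9936 in Erbb3-FF 3, with the next at −0.2989. Erbb3-FF 3 was also the mouse with the highest villus enterocyte and lowest crypt levels, and ERBB3-dIE 5 that with the highest Car1.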

How the results depend on the processing

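Depth is unknown, so counting error per gene could not be given, and 12 mice limit what small differences can be called. The 3 calls by genotype among the 10 genes and the 676 over all genes (209 higher, 467 lower) became, in that order, 5 and 1045 (220 higher, 825 lower) without mitochondrial and ribosomal sequence, 5 and 825 with the smooth muscle term, 1 and 60 with the villus enterocyte term, 0 and 6 in litter A alone, 0 and 15 in litter B alone, and 5 and 1950 in the authors' deposited test. All genes called were 350 with no filter, 243 with no litter term and 108 without ERBB3-dIE mice 4 and 5. Without each replicate in turn they were 303 to 797, and 2 to 4 of the 10. Median-of-ratios scaling gave 310 higher and 530 lower.

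Of the 2 litter calls among the 10 genes, 1 was left with median-of-ratios, mitochondrial and ribosomal or pan-epithelial scaling, and 0 with no filter, with the smooth muscle, colon-type or villus enterocyte term, or without Erbb3-FF mice 5 and 6 or ERBB3-dIE mice 4 and 5. Without each replicate in turn there were 0 to 5. The 1078 litter calls over all genes became 245 with no filter, 708 without mitochondrial and ribosomal sequence, 532 with pan-epithelial scaling, 7 without Erbb3-FF mice 5 and 6, 0 with each of the 3 terms and without ERBB3-dIE mice 4 and 5, and 101 to 3059 without each replicate. The 0 interaction calls became 53 with no filter and 0 to 36 without each replicate.

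Signs turned only among differences that were not called. By genotype these were Cftr (0.38, litter A), Slc9a3 (0.29, litter A), Slc12a2 (−0.51, villus enterocyte term) and Slc26a3 (−0.0505 colon-type term, −0.22 villus enterocyte term, −0.39 litter B, −0.10 without Erbb3-FF 5 and 6, −0.38 without ERBB3-dIE 4 and 5). By litter, with the villus enterocyte term, Cftr gave 0.26, Slc12a2 0.57, Slc26a6 −0.11, Slc9a2 −0.13, Clca4a 0.62 and Clca4b −0.17. Cftr and Clca4a gave 0.11 and 0.21 with smooth muscle, 0.14 and 0.16 with colon-type, and 0.13 and 0.15 without ERBB3-dIE 4 and 5. Slc26a3 gave −0.0279 with median-of-ratios, −0.11 without mitochondrial and ribosomal sequence, −0.12 with pan-epithelial scaling and −0.0892 without Erbb3-FF 5 and 6, and Slc9a2 −0.0289 without mitochondrial and ribosomal sequence and −0.0441 with pan-epithelial scaling. Without 1 replicate, signs turned in Cftr (−0.16 to 0.15), Slc26a3 (−0.19 to 0.21) and Slc9a3 (−0.23 to 0.15) by genotype, Cftr (−0.26 to 0.0623) and Slc26a3 (−0.17 to 0.23) by litter, and Slc9a2 over Slc9a3 (−0.55 to 0.0032). The cause was not tested.

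Clca4a was called in 16 of 18 alternatives, all but the litters alone, Clca4b in 15, lost also with the villus enterocyte term, and Slc9a2 in 10. The median genotype difference of all genes moved by −0.101 in litter B alone and by less than 0.1 in the other alternatives. The median litter difference of all genes moved by −0.122 without mitochondrial and ribosomal sequence and by −0.145 with pan-epithelial scaling. Relative to that median, the litter difference of Slc26a3 was −0.0213 as reported, −0.0296 and −0.0213 under these 2 scalings, and that of Slc9a2 0.0553, 0.0471 and 0.0553, so neither sign turned. The colon-type and villus enterocyte terms were chosen after seeing the data. With mouse number as a replicate block in place of the litter term, 755 genes and 2 of the 10 were called, against 243 and 2 with neither term, and Slc9a2 was at −0.44 (limma adjusted p = 0.0596, and 0.0710 with neither). Same-numbered mice correlated at 0.0739 to 0.357, and 2 of 6 correlated best with their own number, so the numbers were not taken as pairs.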
